A study of Mus musculus with 8 samples.

Results

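RNA sequencing of mouse retina was read for genes of the pathway that runs from leukaemia inhibitory factor (LIF) through receptors that share the subunit gp130 to the transcription factor STAT3. The genes were taken by symbol from the deposited table, and all 9 symbols were found among its 26824 genes: the ligands Lif and Clcf1, the receptor subunits Osmr, Lifr and Il6st (which encodes gp130), the kinases Jak1 and Jak2, the transcription factor Stat3 and the inhibitor Socs3. The study compared retinas of 3 wild-type mice (libraries WT 1 to WT 3) with retinas labelled Kv8.2 KO (libraries KO 2 to KO 6, n = 5), all at 1 month of age and untreated, under a daily cycle of light and dark. Kv8.2 is the voltage-gated potassium channel subunit of photoreceptors encoded by Kcnv2. Per the labels each library holds 2 pooled retinas of a mouse, so the p-values measure the spread between these libraries. The strain, the knockout allele and the sex of the mice were not given in the sources used here. The series text says that the authors left 2 KO samples out without naming them, so all 8 libraries were used.

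LIF and cardiotrophin-like cytokine factor 1 belong to the interleukin 6 family of cytokines, whose members signal through gp130 paired with a second subunit such as the LIF receptor or the oncostatin M receptor. The bound receptors activate JAK kinases, which phosphorylate STAT3, and STAT3 enters the nucleus and switches on genes that include Socs3, an inhibitor that shuts the receptor complex down. In the retina, photoreceptor stress is known to induce Lif in Müller glia, and gp130 signalling is known as a survival pathway for photoreceptors.

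Libraries held 17759146 to 25188870 counts. Levels are given as CPM, the counts of a gene per 1e+06 counts of the library after TMM scaling (trimmed mean of M values). A count of 3, taken as the floor, was worth 0.130 to 0.164 CPM. Kcnv2 itself, the check of the labels, was present in every library, with 519, 551 and 526 CPM for WT 1, WT 2 and WT 3 and 585, 447, 398, 409 and 409 CPM for KO 2 to KO 6 (log2 fold change -0.24, SE 0.14, adjusted p = 0.275). The gene-level count therefore does not tell the labelled groups apart, and the position of the deletion was not given in the sources used here. KO 4, KO 5 and KO 6 stood apart from the other 5 libraries on the first principal component (39.5% of the variance). Their mitochondrial transcripts took 3.03% to 3.70% of counts, against 5.23% and 6.52% in KO 3 and KO 2 and 7.09% to 7.92% in WT. No WT library lay with KO 4 to KO 6, so what sets these 3 apart and the genotype cannot be told apart there, and the values of the 9 genes and the counts of the gene lists are also given for KO 2 and KO 3 against WT. In KO 3, lens genes took 4.23% of counts, against at most 0.130% in any other library.

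Of the 9 genes, 5 were higher in the libraries labelled KO (Lif, Osmr, Lifr, Il6st and Stat3), 0 were lower, and 4 (Clcf1, Jak1, Jak2 and Socs3) did not pass the test. The test was edgeR's quasi-likelihood test on all 8 libraries with Benjamini-Hochberg adjustment over the 20167 genes that passed the filter on low counts. Calls required an adjusted p under 0.05. At an unadjusted p under 0.05, also 0 of the 9 were lower. DESeq2 and limma voom, here always with quality weights per library, likewise called 0 lower. Among all tested genes 7.58% were called, and 4.74% were called higher. In the same 5 genes every KO library lay above every WT library, which held for 10.8% of all tested genes. The median log2 fold change was 0.69 over the 9 genes and 0.00 over all tested genes. Lif is part of these counts and of the median, but it passed the filter through the KO libraries. Of these, 5 of 5 were over the cutoff of 0.468 CPM, against 1 of 3 WT libraries, so Lif supports none of these counts. Osmr, Lifr, Il6st and Stat3 were over the cutoff in every library. With KO 2 and KO 3 against WT, Osmr and Stat3 were called higher, against 0.624% of the genes tested in those 5 libraries, and the median over the 9 was 0.31. In bulk tissue, a change in the number of cells of a type and a change in RNA per cell cannot be told apart.

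**Figure D1:**
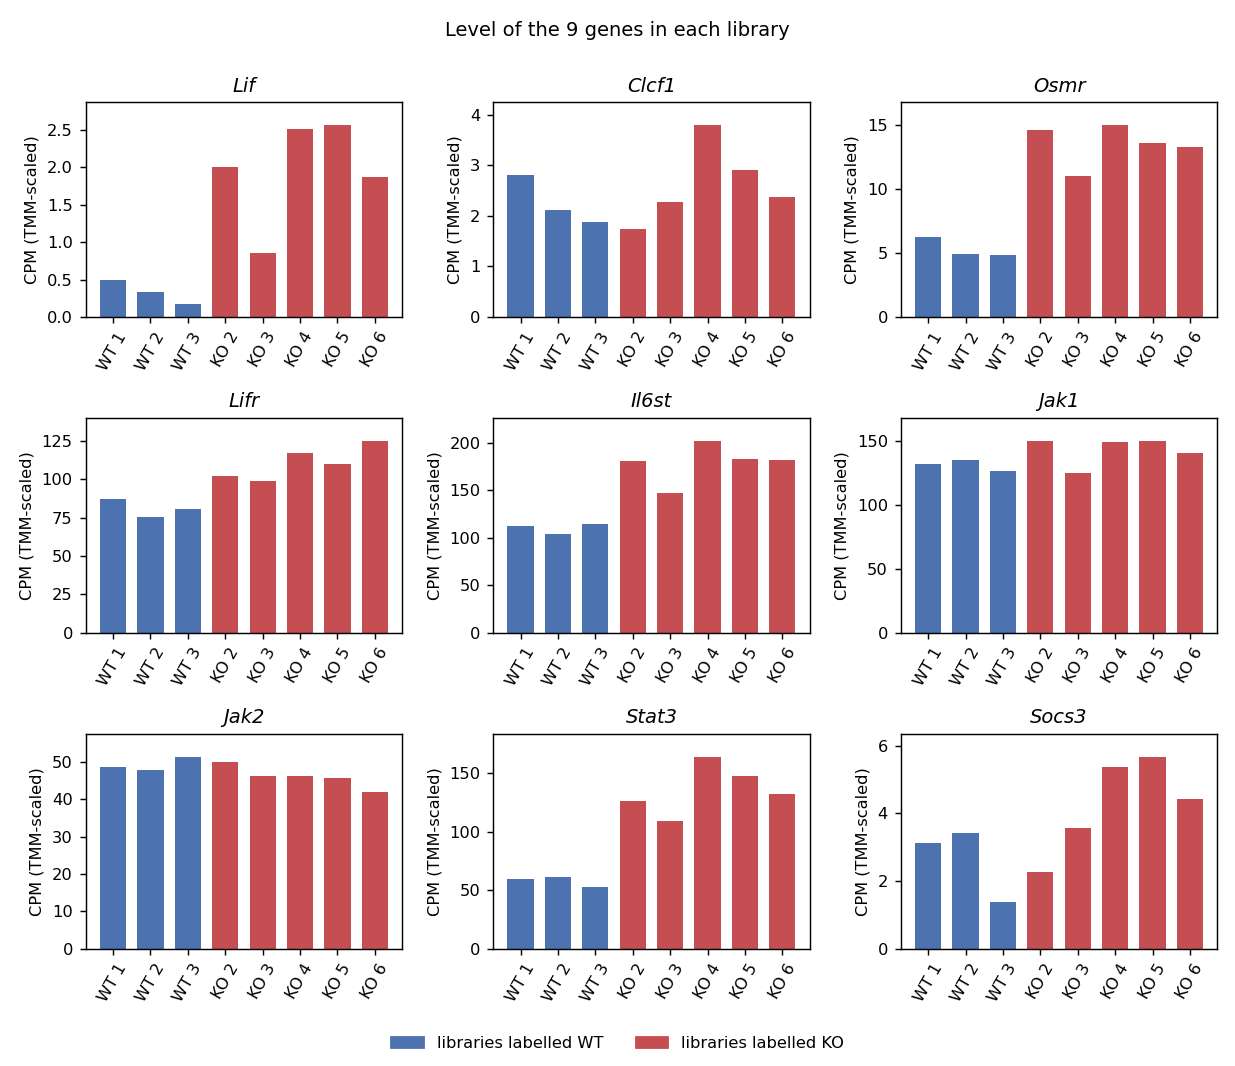
TMM-scaled CPM of each of the 9 genes in each library, with a bar per library (blue, labelled WT; red, labelled KO) and axes that start at 0. The red bars of Lif, Osmr, Lifr, Il6st and Stat3 all stand above the blue bars, with KO 3 the lowest red bar in each, and the bars of Clcf1, Jak1, Jak2 and Socs3 overlap between the groups.

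Upstream sequence is shown for 3 genes on different sides of the test: Stat3 and Il6st, which were called higher, and Socs3, which was not. The sequences are from RefSeq (GRCm38.p6), read 5′ to 3′ on the strand of the gene, and are, for each gene, the longest unbroken stretch within the 250 bases before the RefSeq start site that GENCODE M21 puts in no exon. They lie at chr11:100939541-100939790 on the minus strand for Stat3 (250 bases), chr13:112463820-112464069 on the plus strand for Il6st (250 bases) and chr11:117969452-117969616 on the minus strand for Socs3 (165 bases). Capitals mark TTCNNNGAA, the palindromic core of STAT binding sites.
Stat3: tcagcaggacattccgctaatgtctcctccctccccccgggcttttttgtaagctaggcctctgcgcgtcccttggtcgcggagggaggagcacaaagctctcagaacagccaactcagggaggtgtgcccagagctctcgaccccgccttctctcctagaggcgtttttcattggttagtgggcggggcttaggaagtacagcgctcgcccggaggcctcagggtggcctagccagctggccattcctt
Il6st: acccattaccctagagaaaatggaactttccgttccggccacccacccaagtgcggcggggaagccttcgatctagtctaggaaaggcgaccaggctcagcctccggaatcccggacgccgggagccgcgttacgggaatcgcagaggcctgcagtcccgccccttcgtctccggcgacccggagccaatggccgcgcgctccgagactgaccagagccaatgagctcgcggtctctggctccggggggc
Socs3: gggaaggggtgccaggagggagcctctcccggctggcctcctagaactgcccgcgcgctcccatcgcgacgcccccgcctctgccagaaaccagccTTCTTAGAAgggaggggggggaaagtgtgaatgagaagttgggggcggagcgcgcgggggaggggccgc
The motif reads the same on both strands, and it was searched in windows from 250 bases before to 50 bases after each RefSeq start site. It occurred in 1 of 9 windows of the genes studied here (8 of 9 genes had a window, and Lifr had 2), and in 8.3% of 32851 windows of all genes. The 1 match was in Socs3, TTCTTAGAA at chr11:117969512-117969520, 154 bases before the RefSeq start site. GENCODE M21 places it inside the Socs3 gene but in no exon, because its gene start lies 681 bases from the RefSeq one. The stricter form TTCCNGGAA, which is contained in TTCNNNGAA, was in 0 of the 9 windows and in 1.15% of all. These letters are a description of the windows and not a measure of binding.

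Lif (ENSMUSG00000034394, chr11:4257557-4272514 on the plus strand, GRCm38) encodes the secreted ligand. It was measured at 0.493, 0.329 and 0.178 CPM for WT 1, WT 2 and WT 3 and at 2.0, 0.856, 2.51, 2.56 and 1.87 CPM in KO 2 to KO 6. Every KO library was above every WT library, with KO 3 the lowest of the KO libraries. These levels rest on 4 to 9 counts in a WT library and 18 to 51 in a KO library. WT averaged 0.333 ± 0.158 CPM (SD, n = 3) and KO 1.96 ± 0.687 CPM (SD, n = 5), a 5.89-fold difference (log2 fold change 2.56, SE 0.46, 95% interval 1.54 to 3.57, adjusted p = 0.0147). Lif passed the filter on low counts through the KO libraries, of which 5 of 5 were over its cutoff of 0.468 CPM against 1 of 3 WT libraries, so its call is a description of a gene selected for being high there. The log2 fold change was 2.11 with KO 2 and KO 3 against WT (adjusted p = 0.126). Leaving out any of the WT libraries also ended the call, with an adjusted p of 0.0520 without WT 1, 0.0883 without WT 2 and 0.0749 without WT 3.

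Clcf1 (ENSMUSG00000040663, chr19:4214238-4223490 on the plus strand) encodes cardiotrophin-like cytokine factor 1, a ligand of the ciliary neurotrophic factor receptor. WT 1 to WT 3 held 2.80, 2.12 and 1.87 CPM, and KO 2 to KO 6 held 1.74, 2.28, 3.79, 2.91 and 2.37 CPM. The groups overlapped, with KO 2 below every WT library and KO 4 and KO 5 above. The log2 fold change was 0.21 (SE 0.27, 95% interval -0.39 to 0.82, adjusted p = 0.649). It was -0.16 with KO 2 and KO 3 against WT (adjusted p = 0.807). Leaving out 1 library moved it from 0.0446 (without KO 4) to 0.39 (without WT 1), and without WT 3 it was 0.0915, all uncalled. The exons of Clcf1 overlap those of the gene model AC109138.7 on the same strand, and 7.332% of its 31-base words occur in another gene, so its counts may be split.

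Osmr (ENSMUSG00000022146, chr15:6813577-6874969 on the minus strand) encodes the oncostatin M receptor subunit, which pairs with gp130. WT 1 to WT 3 held 6.25, 4.89 and 4.88 CPM, and KO 2 to KO 6 held 14.6, 11.0, 15, 13.6 and 13.3 CPM. The lowest KO library, KO 3, lay above the highest WT library, WT 1. WT averaged 5.34 ± 0.787 CPM (SD, n = 3) and KO 13.5 ± 1.57 CPM (SD, n = 5), a 2.53-fold difference (log2 fold change 1.34, SE 0.15, 95% interval 1.00 to 1.68, adjusted p = 0.00193). The difference was also called with KO 2 and KO 3 against WT (log2 fold change 1.27, SE 0.19, adjusted p = 0.0294). By p-value Osmr ranked 38 among the 20167 genes.

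Il6st (ENSMUSG00000021756, chr13:112464070-112510086 on the plus strand) encodes gp130, the subunit that all these receptors share. WT 1 to WT 3 held 113, 104 and 115 CPM, and KO 2 to KO 6 held 181, 147, 202, 183 and 182 CPM. All KO libraries were higher, and KO 3 was again nearest to WT. The mean rose from 110 ± 5.94 CPM (SD, n = 3) to 179 ± 20.0 CPM (SD, n = 5), 1.62-fold (log2 fold change 0.70, SE 0.11, 95% interval 0.45 to 0.94, adjusted p = 0.00897). Restricted to KO 2 and KO 3, the log2 fold change was 0.57 and the adjusted p 0.0650. The call was also lost without WT 1 (adjusted p = 0.0587) or WT 2 (0.0691).

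Lifr (ENSMUSG00000054263, chr15:7090614-7197489 on the plus strand) encodes the LIF receptor subunit, the partner of gp130 for LIF. WT 1 to WT 3 held 87.0, 75.4 and 80.9 CPM, and KO 2 to KO 6 held 102, 99.3, 117, 110 and 125 CPM. The groups did not overlap, but the gap between WT 1 and KO 3 was narrow. The mean rose from 81.1 ± 5.79 CPM (SD, n = 3) to 111 ± 10.7 CPM (SD, n = 5), 1.37-fold (log2 fold change 0.45, SE 0.10, 95% interval 0.23 to 0.67, adjusted p = 0.0280). Of the 5 called differences it was the smallest, and the call lost most often when libraries were left out. Restricted to KO 2 and KO 3, it was 0.31 on the log2 scale (adjusted p = 0.141). The call was lost without WT 1 (adjusted p = 0.0973), WT 2 (0.143), WT 3 (0.109), KO 4 (0.0698), KO 5 (0.0646) or KO 6 (0.0535), and when counts were scaled by library size alone.

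The estimated log2 fold changes of the 3 receptor subunits were 1.34 for Osmr, 0.70 for Il6st and 0.45 for Lifr. They were not compared by a test, and the 95% intervals of Il6st and Lifr overlapped. Osmr was at 0.126, 0.114 and 0.106 of the level of Lifr per kb of transcript in WT 1 to WT 3, and at 0.252, 0.194, 0.224, 0.218 and 0.186 of it in KO 2 to KO 6. The ratio was higher in every KO library than in every WT library, and in all 8 libraries Osmr stayed the less abundant of both. This ratio was chosen after the values were seen and has no test.

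**Figure D2:**
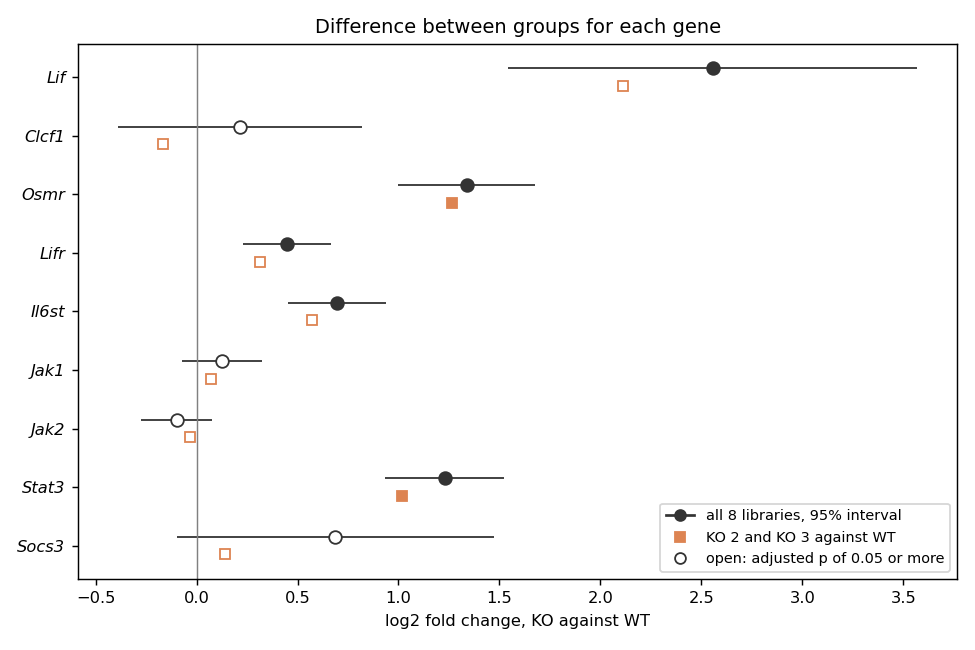
Log2 fold change of each gene, KO against WT, from edgeR's quasi-likelihood test. Circles with 95% intervals are all 8 libraries, squares are KO 2 and KO 3 against WT, and filled symbols have an adjusted p under 0.05. The circles run from 2.56 for Lif to -0.10 for Jak2, and the filled squares are those of Osmr (1.27) and Stat3 (1.02).

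The kinases that transmit the receptor signal showed no called change in the test on all 8 libraries with edgeR. Jak1 (ENSMUSG00000028530, chr4:101152367-101265282 on the minus strand), a JAK kinase that binds gp130, was at 132, 135 and 127 CPM in WT and 150, 125, 149, 150 and 141 CPM in KO 2 to KO 6. KO 3 lay below every WT library and the other 4 KO libraries above. Its log2 fold change was 0.13 (SE 0.09, 95% interval -0.07 to 0.32, adjusted p = 0.393), and 0.07 with KO 2 and KO 3 against WT (adjusted p = 0.762). Jak1 was called higher in 2 of the alternatives. These were 0.16 with limma voom and quality weights (adjusted p = 0.0432) and 0.17 with KO 2 and KO 3 left out (adjusted p = 0.0257). Jak2 (ENSMUSG00000024789, chr19:29251828-29313080 on the plus strand), a kinase of the same family, was at 48.7, 47.9 and 51.4 CPM in WT and 50.1, 46.4, 46.2, 45.8 and 41.9 CPM in KO 2 to KO 6. KO 2 lay within the WT range and the other KO libraries just below it. Its log2 fold change was -0.10 (SE 0.08, 95% interval -0.27 to 0.08, adjusted p = 0.448), and -0.03 with KO 2 and KO 3 against WT (adjusted p = 0.882), and it turned to 0.0363 with counts corrected for GC content (adjusted p = 0.754). For both kinases the 95% interval leaves out a log2 fold change of the size seen for Il6st. The exons of Jak1 overlap those of Raver2 on the opposite strand, and the strand setting of the counting was not given in the sources used here.

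Stat3 (ENSMUSG00000004040, chr11:100885098-100939540 on the minus strand) encodes the transcription factor of the pathway and is also known as a target of itself. WT 1 to WT 3 held 59.8, 60.9 and 53.0 CPM, and KO 2 to KO 6 held 126, 109, 164, 148 and 132 CPM. Even the lowest KO library, KO 3, was far above the WT range. WT averaged 57.9 ± 4.29 CPM (SD, n = 3) and KO 136 ± 21.1 CPM (SD, n = 5), a 2.34-fold difference (log2 fold change 1.23, SE 0.13, 95% interval 0.93 to 1.52, adjusted p = 0.00139). The same difference for KO 2 and KO 3 alone was 1.02 (SE 0.10, adjusted p = 0.00567). Stat3 ranked 31 by p-value among the 20167 genes, ahead of Osmr at 38, Il6st at 161, Lif at 260 and Lifr at 640. The exons of Stat3 overlap those of Stat5a on the opposite strand, but Stat5a was at 2.78 ± 0.487 CPM (WT; SD, n = 3) and 4.13 ± 0.973 CPM (KO; SD, n = 5), far below Stat3. Of the 31-base words of Stat3, 2.358% occur in another gene.

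Socs3 (ENSMUSG00000053113, chr11:117966079-117970047 on the minus strand) encodes the feedback inhibitor that binds gp130 and JAK kinases. WT 1 to WT 3 held 3.12, 3.43 and 1.38 CPM, and KO 2 to KO 6 held 2.26, 3.57, 5.37, 5.67 and 4.42 CPM. KO 4, KO 5 and KO 6 were above every WT library, KO 3 was barely above WT 2, and KO 2 was within the WT range. WT averaged 2.64 ± 1.11 CPM (SD, n = 3) and KO 4.26 ± 1.39 CPM (SD, n = 5). On the log2 scale the difference was 0.69 (SE 0.35, 95% interval -0.10 to 1.47, adjusted p = 0.237), and 0.14 with KO 2 and KO 3 against WT (adjusted p = 0.880). The interval includes both no change and the size of change seen for Stat3. Without WT 3, the lowest library, it was 0.37 (adjusted p = 0.560), and with counts corrected for GC content 0.42 (adjusted p = 0.459). It was called higher in 2 of the alternatives. These were 0.99 with limma voom and quality weights (adjusted p = 0.0132) and 0.98 with KO 2 and KO 3 left out (adjusted p = 0.0126). Per kb of transcript, Socs3 was at 0.124, 0.133 and 0.0615 of the level of Stat3 in WT 1 to WT 3 and at 0.0424, 0.0778, 0.0777, 0.0905 and 0.0794 of it in KO 2 to KO 6. WT 3 lay within the KO range of this ratio, which was chosen after the values were seen and has no test.

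Levels were compared between genes as CPM per kb of the longest coding transcript. In WT, Jak1 was highest (mean 26.7, range 25.9 to 27.5), followed by Il6st (12.7, 11.9 to 13.2). Jak2 (9.81, 9.53 to 10.2), Stat3 (9.58, 8.77 to 10.1) and Lifr (8.40, 7.81 to 9.01) came next, and the range of Stat3 overlapped those of both its neighbours. Well below them lay Clcf1 (1.22, 1.01 to 1.51), Socs3 (1.04, 0.539 to 1.35) and Osmr (0.973, 0.890 to 1.14), whose ranges overlapped, and lowest was Lif (0.0828, 0.0441 to 0.123). In WT retina the shared receptor subunit and the transducers were thus at a higher length-scaled level than the ligands, Osmr and Socs3.

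In the libraries labelled KO, Jak1 was still highest on average (29.2, 25.4 to 30.7). Stat3 (22.5, 18 to 27.1) came second and its range overlapped those of Jak1 and Il6st (20.6, 16.9 to 23.3). Lifr (11.5, 10.3 to 12.9) and Jak2 (9.16, 8.33 to 9.96) followed. Osmr (2.46, 2.0 to 2.73), Socs3 (1.67, 0.885 to 2.22) and Clcf1 (1.42, 0.940 to 2.05) again came lower, with overlapping ranges, and Lif stayed lowest (0.486, 0.213 to 0.635). The order of the middle genes thus differed from WT: Stat3 stood above Il6st and Jak2 on average, and Osmr above Socs3 and Clcf1.

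**Figure D3:**
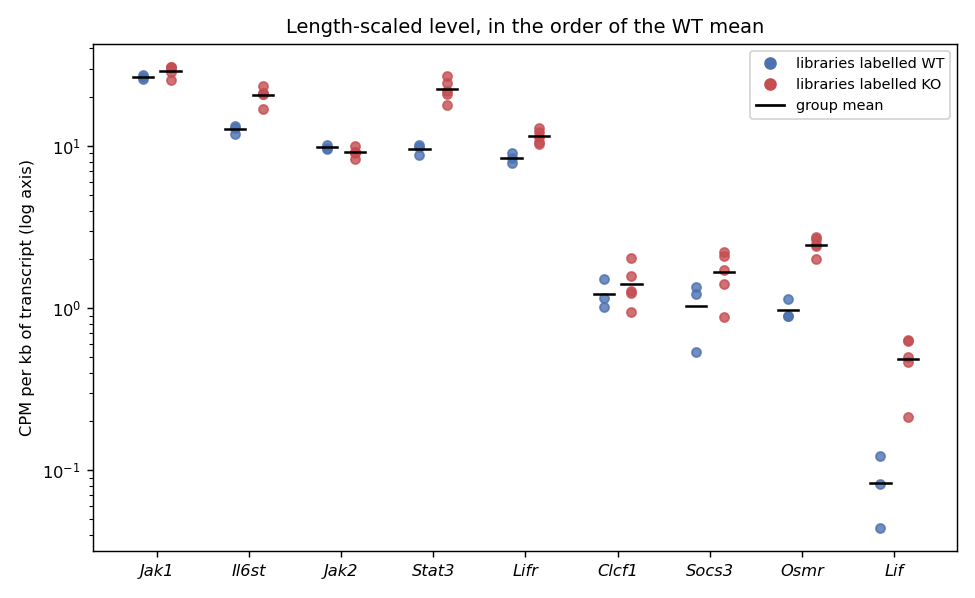
Level per kb of the longest coding transcript (log axis) of each gene, in the order of the WT mean; points are libraries (blue, labelled WT; red, labelled KO) and lines are group means. Stat3 lies near Jak2 in WT and near Il6st in KO, and Lif is lowest in both groups.

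The profiles of the genes over the 8 libraries were compared by the root mean square difference of centred log2 CPM (prior count 2). Among the 36 pairs, Osmr and Stat3 were the most alike, at 0.15 on the log2 scale. Lif stood farthest from the others, up to 1.25 from Jak2. Among 12754 candidate genes (average log2 CPM 1 or more), those nearest to Stat3 were Btc (0.12), Ptprn (0.13), Heg1 (0.14), Junb (0.14) and Zfat (0.14). Btc encodes betacellulin, a ligand of the epidermal growth factor receptor, Ptprn a dense-core vesicle protein and Junb an AP-1 transcription factor. Their log2 fold changes were 1.34, 1.28, 1.13, 1.27 and 1.11 in the same order, close to that of Stat3. Those nearest to Lif, among 12755, were C4b (0.17), Fcamr (0.24), Fgf2 (0.35), Bst2 (0.35) and Lrrc2 (0.40), with log2 fold changes of 2.36, 2.26, 2.07, 1.72 and 1.96. C4b encodes a complement component, Fgf2 a growth factor and Bst2 an interferon-induced membrane protein. C4b has a close paralog in the mouse, so its counts may be split. All 10 of these genes had an adjusted p under 0.05, and likeness here rests in large part on the difference between the groups.

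Of 40 other genes of the pathway, 35 were in the deposited table and 32 were tested. Of these, 5 were higher in the libraries labelled KO (4.74% of all tested genes were), 0 were lower and 27 were not called. At an unadjusted p under 0.05, 2 were lower, and both are inhibitors, while DESeq2 called 1 lower and limma voom 4. The median log2 fold change was 0.08, against 0.00 over all tested genes, and 0.09 with KO 2 and KO 3 against WT. The 3 tested ligands were not called. By role, 1 of 4 receptors, 1 of 2 kinases, 1 of 5 adaptors and 1 of 13 inhibitors were called higher. Il11 and Socs1 were in the table but too low to test, and Il6, Osm, Il27, Il27ra and Stat4 were not analysed here.

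Of the called genes, 4 are described, each from a different role. Cntfr, the alpha subunit that binds ciliary neurotrophic factor, rose by 0.87 on the log2 scale (20.8 ± 1.55 to 38.0 ± 8.78 CPM, adjusted p = 0.0254). Jak3, a kinase best known from lymphocytes, rose by 1.51 (SE 0.34; 2.21 ± 0.330 to 6.29 ± 2.41 CPM, adjusted p = 0.0308). Gab1, an adaptor of growth factor and cytokine receptors, rose by 0.54 on the log2 scale (19.7 ± 0.408 to 28.7 ± 2.45 CPM, adjusted p = 0.0173). Ptpn1, a phosphatase that acts on JAK kinases, rose by 0.62 (36.8 ± 0.172 to 56.6 ± 9.66 CPM, adjusted p = 0.0284). With KO 2 and KO 3 alone against WT, these 4 were not called. The adjusted p was 0.0990 for Cntfr, 0.198 for Jak3, 0.102 for Gab1 and 0.159 for Ptpn1. In that fit 1 gene of the 32 was called higher, and 0.624% of all genes tested there were. The number of the 32 called moved with single libraries: it was 1 without WT 1, WT 2, WT 3 or KO 4, 2 without KO 5, 3 without KO 6, 9 without KO 2 and 11 without KO 3.

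Other members of these families stayed uncalled. Among the ligands, Cntf was at 5.71 ± 1.53 CPM (WT; SD, n = 3) and 5.30 ± 3.29 CPM (KO; SD, n = 5), with 11.0 CPM in KO 3 alone. Among the inhibitors, Socs4 had a log2 fold change of -0.37 (adjusted p = 0.0996), with every KO library below every WT library. Among the STATs, Stat5b had a log2 fold change of 0.27 (adjusted p = 0.0621) and Stat6 one of 0.32 (adjusted p = 0.264). Tyk2, another JAK kinase that gp130 can use, had a log2 fold change of 0.52 (adjusted p = 0.0752), with every KO library above every WT library. Restricted to KO 2 and KO 3, the log2 fold changes were 0.49 for Cntf, -0.12 for Socs4, 0.19 for Stat5b, 0.04 for Stat6 and 0.19 for Tyk2, none of them called. These examples were chosen after their values were seen.

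Of 21 genes known as STAT3 targets in various tissues, 20 were tested. Of these, 8 including Bcl3 were higher (4.74% of all tested genes were), 1 was lower and 11 were not called. Their median log2 fold change was 0.56, against 0.00 over all tested genes, and 0.35 with KO 2 and KO 3 against WT. Gfap, Bcl3, Cebpd and Serpina3n were put on this list with their rise already known, so the count is not independent evidence of its direction, and Bcl3 also entered the test through the KO libraries alone. Many of these genes also answer to other transcription factors.

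Gfap, the intermediate filament of astrocytes and reactive Müller glia, was at 19.1, 20.4 and 20.7 CPM in WT and 78.3, 47.4, 65.4, 67.0 and 61.2 CPM in KO 2 to KO 6. The groups were far apart, and the log2 fold change was 1.67 (adjusted p = 0.000382). Fos and Junb, subunits of the AP-1 transcription factor, rose by 1.46 (adjusted p = 0.000746) and 1.27 (adjusted p = 0.00513) on the log2 scale. A2m, a protease inhibitor, rose by 1.76 (4.72 ± 0.582 to 16 ± 5.32 CPM, adjusted p = 0.00809). Ccnd1, which encodes cyclin D1, rose by 0.56 (31.3 ± 1.17 to 46.2 ± 3.61 CPM, adjusted p = 0.00927). These 5 were the targets that were also called with KO 2 and KO 3 against WT (0.624% of all genes tested there were called higher). In that fit the log2 fold changes were 1.65 for Gfap, 1.37 for Fos, 0.92 for Junb, 1.22 for A2m and 0.59 for Ccnd1.

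The other called targets were not called in those 5 libraries. Bcl3, a regulator of NF-κB, had a log2 fold change of 2.50 (adjusted p = 0.0384), Cebpd, a transcription factor of the acute-phase response, 2.13 (adjusted p = 0.0271) and Serpina3n, a serine protease inhibitor, 1.45 (adjusted p = 0.0419). Bcl3, like Lif, passed the filter on low counts through the KO libraries (5 of 5 over the cutoff, against 0 of 3 WT libraries, at 5 to 10 counts in a WT library), so its call is a description and supports no count. In Serpina3n the groups overlapped, since KO 3 at 5.14 CPM was below WT 2 at 5.31 CPM. Vegfa, the vascular growth factor, was lower, at 128 ± 6.27 CPM (WT; SD, n = 3) and 98.4 ± 7.19 CPM (KO; SD, n = 5), a log2 fold change of -0.38 (adjusted p = 0.0317). Across single libraries left out, the number called was 3 without WT 1 or WT 2, 4 without WT 3, 5 without KO 4, KO 5 or KO 6, 11 without KO 2 and 12 without KO 3. The lower call of Vegfa was lost when any 1 of the WT libraries or of KO 4 to KO 6 was left out.

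**Figure D4:**
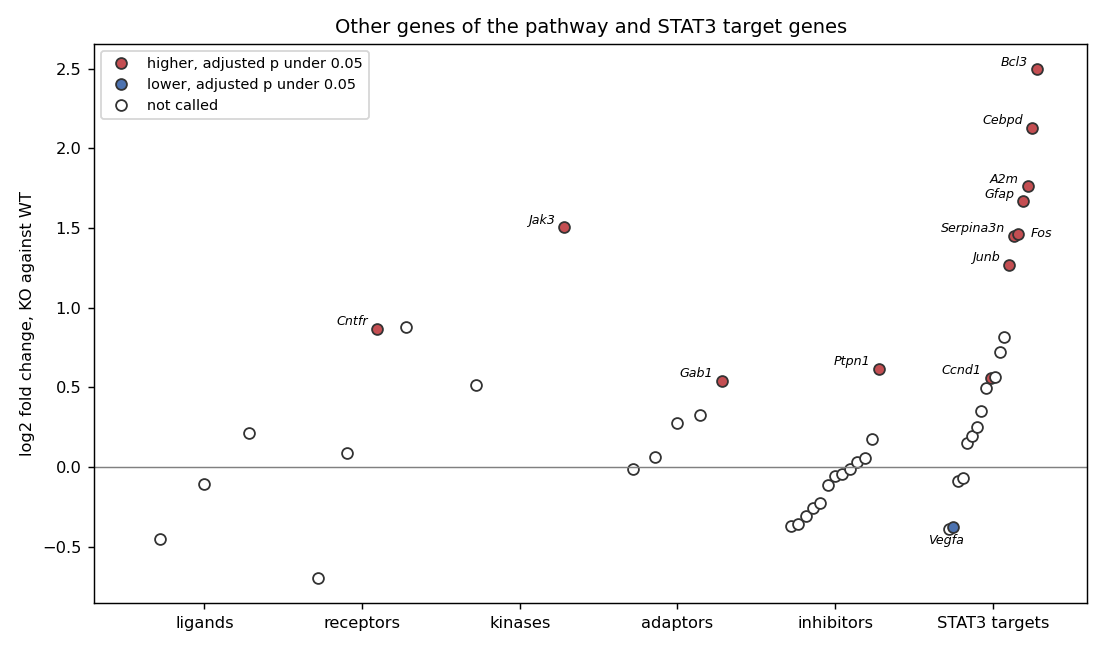
Log2 fold change, KO against WT, of tested genes of the pathway list by role (STATs not drawn) and of the STAT3 target list, each point a gene; filled points have an adjusted p under 0.05 (red, higher; blue, lower). The filled points of the pathway list are Cntfr, Jak3, Gab1 and Ptpn1, and of the target list 9 of 20 are filled, with Vegfa the only filled point below 0; Bcl3, at 2.50, passed the filter on low counts through the KO libraries.

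A shorter list of 6 genes known to rise in stressed retina with LIF signalling (Edn2, Fgf2, Gfap, Cebpd, Bcl3 and Serpina3n) was chosen with their rise known and is a description only. All 6 were called higher, Bcl3 with the limit given above, and the median was 2.10 on the log2 scale. Fgf2, a survival factor for photoreceptors, was at 40.3 ± 2.55 CPM (WT; SD, n = 3) and 170 ± 32.1 CPM (KO; SD, n = 5), a log2 fold change of 2.07 (adjusted p = 0.000142). Edn2, the endothelin made by stressed photoreceptors, was at 4.17, 3.71 and 2.66 CPM in WT and 5.04, 6.51, 45.6, 35.1 and 28.9 CPM in KO 2 to KO 6 (log2 fold change 2.79, adjusted p = 0.0433). KO 2 and KO 3 were close to WT and KO 4 to KO 6 far above, whereas Lif in KO 2 was above its level in KO 6. Fgf2 and Gfap were the 2 also called with KO 2 and KO 3 against WT. The number called was 2 without any 1 of WT 1, WT 2, WT 3, KO 4, KO 5 or KO 6.

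Some markers of other cells moved beside these genes. Of 9 markers of Müller glia, the main glia of the retina, 4 were higher (Sox9, Kcnj10, Vim and Abca8a), and their summed level was 4208 to 4429 CPM in WT and 4429 to 6503 CPM in KO. Of 10 microglia markers 2 were higher (56.1 to 60.1 CPM summed in WT, 64.5 to 85.7 in KO), and of 11 endothelial and pericyte markers 2 were higher (329 to 342 CPM in WT, 416 to 515 in KO). No marker of these 3 lists was at 0 in any library. Of 8 cone markers 1 was higher and 2 were lower (907 to 1116 CPM in WT, 659 to 872 in KO), and the 8 rod markers, none of them called, summed to 40101 to 43362 CPM in WT and 34849 to 51536 in KO. None of the 3 astrocyte, 8 pigment epithelium and 3 tested leukocyte and blood markers was called. Over all tested genes 7.58% were called and 4.74% were called higher. With KO 2 and KO 3 against WT edgeR called 2 endothelial and pericyte markers, 2 cone markers, and 0 of Müller glia and 0 of microglia (6 and 4 at an unadjusted p under 0.05). Their part in the results for Stat3, Osmr, Il6st, Lifr and Lif was not tested. The lens list spanned 21.1 to 1309 CPM in WT and 1.14 to 43431 CPM in KO, and Cryaa, Crybb2, Crygd and Lim2 were at 0 in at least 1 library. With the lens genes removed, the same number of the 9 genes, 5, was called. Across 18028 genes, the log2 fold change went with the GC content of the transcript (Spearman's rho 0.460, as a description, since all genes share the same libraries), and GC content ran from 44.27% for Jak2 to 58.74% for Socs3 among the 9 genes. With counts corrected for GC content the log2 fold change was 1.1 for Stat3, 1.42 for Osmr, 0.72 for Il6st, 0.59 for Lifr and 2.40 for Lif, and all 5 remained called.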

How the data were processed

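The deposited table holds whole numbers per gene and library, treated as estimated counts rounded to whole numbers, since the submitters' processing notes name Salmon 1.10.2, Trim Galore and DESeq2 and the build GRCm38, with no role or order. The strand setting and annotation were not given in the sources used here. Every gene had at least 16 counts in total. GENCODE M21 matched 22121 of 26824 genes by Ensembl identifier. In R 4.3.3 and edgeR 4.0.16, counts were scaled by TMM, filtered with filterByExpr (20167 genes) and compared with the quasi-likelihood test (glmQLFit and glmQLFTest), with Benjamini-Hochberg adjustment over all tested genes and calls at an adjusted p under 0.05. Standard errors came from the fold change and its F statistic. Of all genes, 956 were called higher and 573 lower, and 566 and 787 with library size alone. No pair of libraries of a group agreed within sampling noise (chi-square per degree of freedom 5.38 or more). The steps were tested on simulated data. Floors cover counting error only.

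The 9 genes and the lists were chosen with earlier results of these data known. Named genes are these 9, Kcnv2, every called gene of the pathway and target lists, and the 5 genes nearest in profile to Stat3 and to Lif. Some genes of the lists are counted but not reported here. Alternatives were limma voom 3.58.1 with quality weights per library, DESeq2 1.42.0 or its size factors, scaling by library size alone and other filters. Others left out each library or pair of KO libraries, or used KO 2 and KO 3 alone or a replicate block. The last were removal of lens genes, a GC correction and a surrogate variable (sva 3.50.0).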

Additional observations from a re-analysis of the deposited data

Results flagged for a closer look

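In groups of 5 libraries, 35 values were checked for a library whose gap to its nearest neighbour, as a share of the group's range, exceeded Dixon's limit of 0.71. None of the 9 genes did. Chance gives about 1 in 20 groups, and 5 of 35 passed the limit. KO 2 was the lowest KO library for Vegfa (share 0.790; 85.8 CPM, with the next at 99.2). KO 2 was the highest for Kcnv2 (share 0.738; 585 CPM, with the next at 447), for the summed Müller glia markers (share 0.738; 6503 CPM, with the next at 4972) and for the summed leukocyte and blood markers (share 0.897; 24.8 CPM, with the next at 11.5). KO 3 was the highest for the summed lens markers (share 0.996; 43431 CPM, with the next at 181).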

How the results depend on the processing

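Of the 8 fits that left out 1 library and the 10 that left out 2 KO libraries, Stat3 and Osmr were called in all, Il6st in 6 and 8, Lif in 5 and 5, and Lifr in 2 and 6. Over all 32 alternatives Stat3 was called in 31 (not with libraries 2 and 3 alone without the block), Osmr in 30, Il6st in 25, Lif in 20, Lifr in 17, Jak1 and Socs3 in 2 each, and Clcf1 and Jak2 in 0. The direction reversed for Clcf1 with KO 4 and KO 5 left out (log2 fold change -0.0796) and with KO 2 and KO 3 against WT (-0.16), and for Jak2 with the GC correction (0.0363), none of them called. The cause was not tested.

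With 1 library left out, the number called ranged from 132 to 3992 genes, from 2 to 5 of the 9 genes, from 1 to 11 of the pathway list, from 3 to 12 of the STAT3 targets and from 2 to 6 of the LIF response list. Among KO 2, KO 3 and WT the 9 genes gave 0 to 5 calls with 1 library left out (0 without WT 1 and 0 without WT 2, where 5 had an unadjusted p under 0.05 in edgeR). Without KO 2 or KO 3 the KO arm of that fit is 1 library, assumed to vary like WT, and these gave 3 and 5 calls. Without KO 2 and KO 3, 8416 genes, 7 of the 9, 18 pathway genes and 15 targets were called. Without KO 2 and KO 4 the numbers were 399 genes, 3 of the 9 and 1 pathway gene. Without KO 2 and KO 5 they were 496 and 1 pathway gene. Without KO 2 and KO 6 they were 645 and 3 pathway genes. With KO 3 left out together with KO 4 or KO 6, 2540 and 2593 genes were called. With KO 4 and KO 5 left out, they were 118 genes, 2 of the 9, 0 pathway genes (9 at an unadjusted p under 0.05 in edgeR), 4 targets and 2 response genes. With KO 4 and KO 6 left out, they were 191, 2, 1, 5 and 2, and with KO 5 and KO 6 left out 203, 3, 1, 5 and 2, in the same order. The fit of KO 2 and KO 3 against WT gave 180, 2, 1, 5 and 2.

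DESeq2 called 3066 genes and 9 of the pathway list. Limma voom, which gave each library a quality weight, called 8248 genes, 16 of the pathway list and 15 targets. The surrogate variable gave 2744 genes and 9 of the pathway list. Numbers 2 and 3 occur in both groups, with no label saying that they mark shared animals. Deviations of same-numbered libraries had a correlation of -0.190. With the replicate block on these 4 libraries, 52 genes were called, 1 of the 9 (Stat3, log2 fold change 1.04, adjusted p 0.0121), 0 of the pathway list (4 at an unadjusted p under 0.05 in edgeR), 2 targets and 2 response genes. Without the block, the same libraries gave 14 genes, 0 of the 9 (5 at an unadjusted p under 0.05), 0 of the pathway list (5 likewise), 1 target and 1 response gene. The crossed block, added after seeing the data, gave 527 genes, 3 of the 9, 1 pathway gene, 5 targets and 2 response genes. The stricter motif lowered the share of promoter windows with a match to 1.15%. Depth limits Lif, at 4 to 9 counts in a WT library, most.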
